A study of Mus musculus with 16 samples.

Results

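The immediate early stress genes described here are 10 genes, the AP-1 subunits Fos, Fosb, Jun and Junb, the transcription factors Egr1 and Atf3, the immediate early response genes Ier2 and Ier3, and the growth arrest and DNA damage genes Gadd45b and Gadd45g. They were chosen by name, with earlier results of these data known. Each was read from the probe set annotated to it in the deposited table of log2 expression values. Where a gene had several probe sets, the 1 with the highest mean over 16 arrays was used. All 10 were measured, each by 1 probe set, out of 22180 genes. The tissue was renal cortex of mice fed a normal diet and aged 3 months, with 4 arrays in each of 4 groups. Double mutants carried loxP-flanked (floxed) alleles of both Vhl and Pbrm1 with Ksp-Cre (VhlF/FPbrm1F/FKsp-Cre), Vhl mutants carried floxed Vhl with Ksp-Cre (VhlF/FKsp-Cre), Pbrm1 mutants carried floxed Pbrm1 with Ksp-Cre (Pbrm1F/FKsp-Cre), and wild-type mice carried neither. In Ksp-Cre the Cdh16 promoter drives Cre in tubule epithelium, so that cells outside it keep both genes. These arrays do not show which tubule segments, or what share of their cells, lost the genes. The Vhl protein directs the breakdown of hypoxia-inducible factors, and that of Pbrm1 belongs to the chromatin remodeler PBAF. The stated aim concerned early transcriptional events in clear cell renal cell carcinoma.

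Immediate early genes are transcribed within minutes of a stimulus, without new protein synthesis. Growth factors, cytokines, injury, ischemia and heat reach them through MAP kinases, serum response factor, CREB and NF-kappa-B, and many of the transcripts are short-lived. Fos and Jun proteins pair into the transcription factor AP-1, and Egr1, Atf3 and AP-1 in turn set the genes of the later response; in kidney tubules the class is known for its rapid induction by ischemia and by removal of the tissue. For that reason every member is given array by array.

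Each array's description holds a number, and L or R after it, without an explanation of either. In Vhl mutants, Pbrm1 mutants and wild-type kidneys, replicates 1 and 2 share a number and replicates 3 and 4 share another. Double mutant replicates 1, 2 and 3 share a number, and the description of replicate 3 repeats that of replicate 2. A number may mark an animal; a group would then hold 2 animals, and p-values measure in part technical spread. Over all 41345 probe sets, double mutant replicate 3 correlated with replicate 4 at 0.9883 and with replicates 1 and 2 at 0.9852 each, so it stood nearer to the array of the other number. This was not particular to it: wild-type replicate 1 correlated with replicate 3 at 0.988 and with replicate 2, of its own number, at 0.9871. In Pbrm1 mutants each array was nearest to that of its own number. Wild-type mice were C57BL/6 and all mutants a mix of C57BL/6, BALB/c and 129, so strain and genotype cannot be told apart in any comparison with wild type. The Vhl mutant numbers lie above those of the other groups, and a batch behind them could not be told apart from that genotype. The number of arrays limits the precision, with a median standard error of 0.115 to 0.116 for a log2 difference between groups. The markers of the proximal tubule, the main epithelium of the cortex, were strong, with Slc34a1 (a phosphate transporter) at group means of 12.7 to 12.9, whereas Cyp11b1, an enzyme that defines the adrenal cortex and was picked after its values were seen, lay at 3.19 to 3.41, near the lower quartile of all probe sets (3.27 to 3.33). The probe sets of Vhl and Pbrm1 did not separate the genotypes (limma adjusted p from 0.546 to 0.849 for Vhl and from 0.614 to 0.978 for Pbrm1 in the 3 mutants against wild type); they may lie outside the deleted exons, and so check nothing about the labels.

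The 10 genes did not move as a block. In double mutants against wild type 5 of the 10 rose (Egr1, Gadd45b, Junb, Atf3 and Ier2) and 0 fell, where 6.64% of all 22180 genes were called higher, 5.56% lower and 12.2% in either direction by limma at an adjusted p under 0.05. In Vhl mutants against wild type Egr1 rose while Jun, Ier3 and Gadd45g fell, where 3.84% of all genes were called, 2.04% higher and 1.79% lower. In Pbrm1 mutants against wild type the same 4 genes were called in the same directions, where 4.04% of all genes were called, 1.59% higher and 2.45% lower; these comparisons share the wild-type arrays. The median log2 fold change of the members was 0.50 in double mutants, 0.18 in Vhl mutants and -0.05 in Pbrm1 mutants, against medians over all genes of -0.02, -0.01 and -0.01 in the same comparisons. In double mutants 4 members had every array above every wild-type array (Egr1, Fos, Gadd45b and Junb), where 9.21% of all genes lay higher in this way, 8.53% lower and 17.7% either way. In Vhl mutants 5 members did not overlap with wild type (10.8% of all genes, 5.07% higher and 5.71% lower), Egr1 and Gadd45b above and Jun, Ier3 and Gadd45g below. In Pbrm1 mutants 4 members did not overlap (11.9% of all genes, 5% higher and 6.85% lower), Egr1 above and the same 3 below. In bulk cortex, more cells of a type and more RNA per cell cannot be told apart.

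**Figure D1:**
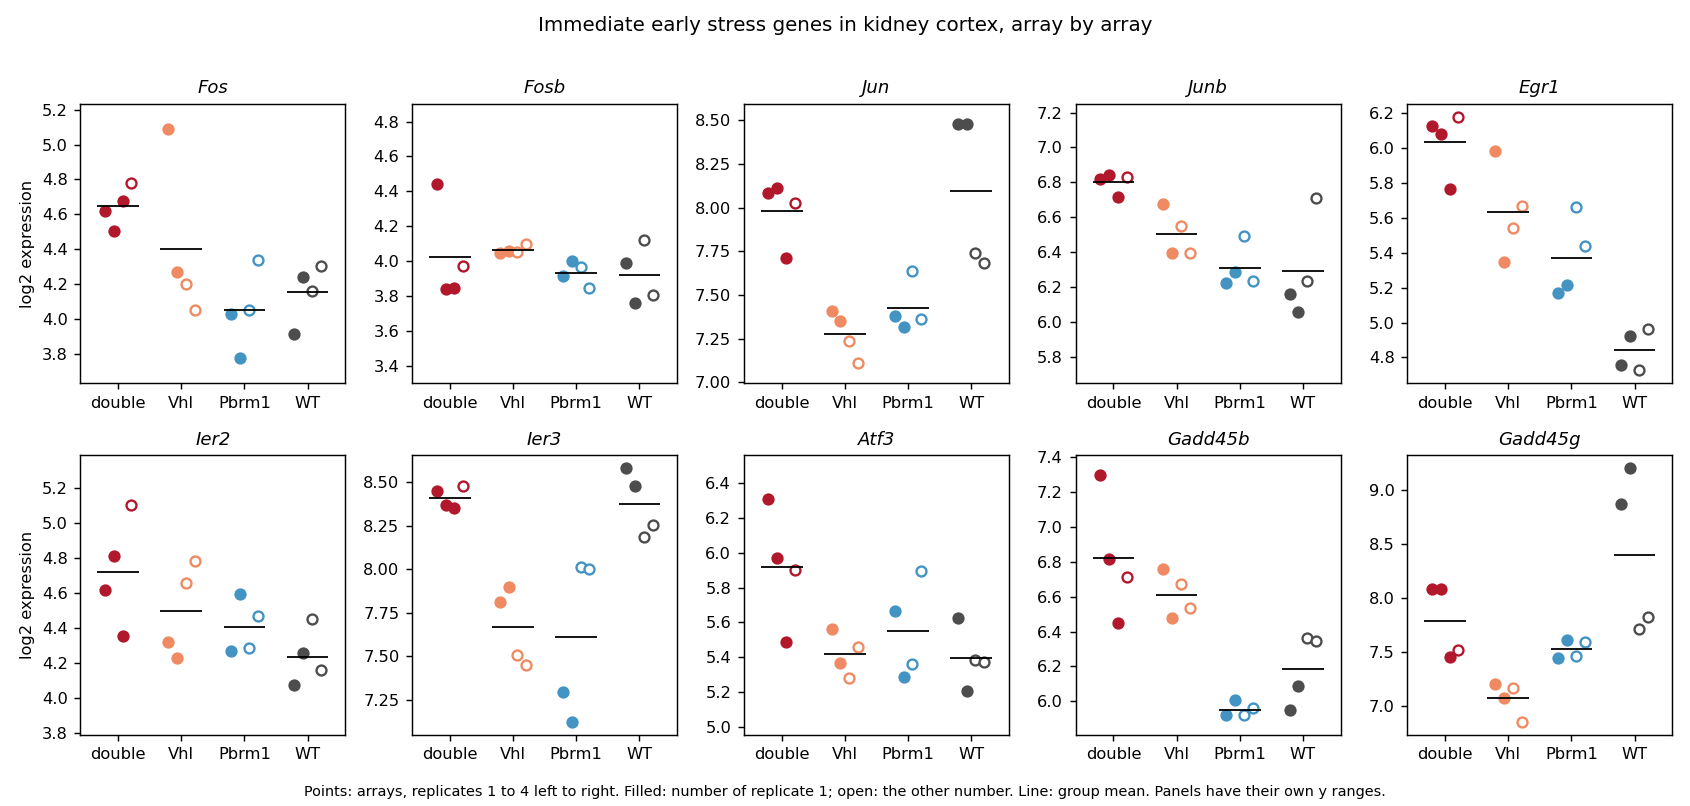
Log2 expression of the 10 genes (y axis, own range per panel) in the 4 groups (x axis), with a point per array, replicates 1 to 4 from left to right, filled where the array has the description number of replicate 1 and open where it has the other, and a line at the group mean. Every mutant array of Egr1 lies above every wild-type array, while for Jun and Gadd45g wild-type replicates 1 and 2 (8.48 and 8.48, 8.87 and 9.2) lie above all other arrays.

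Egr1, a zinc finger transcription factor induced by serum and by injury, was higher in each mutant group. It measured 6.12, 6.08, 5.77 and 6.18 in double mutants, 5.99, 5.34, 5.54 and 5.67 in Vhl mutants, 5.17, 5.22, 5.66 and 5.44 in Pbrm1 mutants, and 4.76, 4.92, 4.73 and 4.96 in wild-type kidneys (log2, replicates 1 to 4, as in all such lists). The lowest of the 12 mutant arrays, Pbrm1 mutant replicate 1, still lay above the highest wild-type array. Egr1 rose 2.30-fold in double mutants (log2 fold change 1.20 ± 0.14 SE, limma adjusted p = 6.42e-06, n = 4 arrays per group, as throughout). It rose 1.73-fold in Vhl mutants (0.79 ± 0.14 SE, adjusted p = 0.00247) and 1.44-fold in Pbrm1 mutants (0.53 ± 0.14 SE, adjusted p = 0.0389). The means ran in the order double, Vhl, Pbrm1 and wild type, at 6.04 ± 0.18, 5.64 ± 0.27, 5.37 ± 0.23 and 4.84 ± 0.12 (SD). Neighbours among the mutants were not separated by the test: double against Vhl mutants differed by 0.41 ± 0.14 SE (adjusted p = 0.106) and Vhl against Pbrm1 mutants by 0.27 ± 0.14 SE (adjusted p = 0.345). The rise in double and in Vhl mutants was called under every one of the 32 alternative settings run, and that in Pbrm1 mutants was lost under 13 of them, among them the omission of wild-type replicate 1, 2 or 3 or of Pbrm1 mutant replicate 3 or 4.

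Junb and Gadd45b rose in double mutants and had no called difference between either single mutant and wild type. Their promoters are shown because both genes were called in double mutants against wild type. The sequences are the 250 bases before the start of the RefSeq gene (assembly GRCm38.p6), 5′ to 3′ on the gene's strand. Capitals mark TGACG, the core of a cyclic AMP response element, in Junb (chr8:84978749-84978998, minus strand) and ACGTG, the core of a hypoxia response element, in Gadd45b (chr10:80929841-80930090, plus strand), where its matches on both strands overlap and make the 6 capitals.
Junb: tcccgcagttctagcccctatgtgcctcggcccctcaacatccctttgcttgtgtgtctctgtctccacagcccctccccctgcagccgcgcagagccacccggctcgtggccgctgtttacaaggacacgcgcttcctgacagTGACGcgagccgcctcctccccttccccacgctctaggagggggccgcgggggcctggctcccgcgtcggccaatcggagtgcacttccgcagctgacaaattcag
Gadd45b: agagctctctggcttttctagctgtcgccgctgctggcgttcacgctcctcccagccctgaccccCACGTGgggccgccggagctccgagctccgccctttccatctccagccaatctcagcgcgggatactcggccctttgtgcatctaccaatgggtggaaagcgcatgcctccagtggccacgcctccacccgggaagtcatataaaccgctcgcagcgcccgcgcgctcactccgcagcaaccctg
TGACG on either strand was found in 17.8% of 32851 such promoters and in 4 of the 8 member promoters in the RefSeq table, those of Atf3, Fos, Fosb and Junb. ACGTG was found in 16.6% of all and in 3 of the 8, those of Gadd45b, Gadd45g and Ier3. The full cyclic AMP response element TGACGTCA (1.55% of all), the AP-1 site TGANTCA (6.75%) and the CArG box bound by serum response factor (1.47%) had matches in 0 of the 8 windows, which says only that these letters do not occur there. TGACG lies within TGACGTCA. Egr1 and Ier2 are named only.

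Junb, an AP-1 subunit that often opposes Jun, measured 6.82, 6.84, 6.72 and 6.83 in double mutants, 6.68, 6.39, 6.55 and 6.40 in Vhl mutants, 6.22, 6.29, 6.49 and 6.24 in Pbrm1 mutants, and 6.16, 6.05, 6.23 and 6.71 in wild-type kidneys. All double mutant arrays lay above all others, although wild-type replicate 4 (6.71) lay just below the lowest of them (6.72). Junb rose 1.43-fold in double mutants against wild type (log2 fold change 0.51 ± 0.12 SE, limma adjusted p = 0.00626). Its difference between double and Vhl mutants was 0.30 ± 0.12 SE and was not called (adjusted p = 0.161). Gadd45b, a regulator of p38 and JNK kinase signalling and an NF-kappa-B target, measured 7.30, 6.81, 6.45 and 6.71 in double mutants, 6.76, 6.48, 6.67 and 6.53 in Vhl mutants, 5.92, 6.01, 5.92 and 5.96 in Pbrm1 mutants, and 5.95, 6.09, 6.37 and 6.35 in wild-type kidneys. The double and Vhl mutant arrays all lay above those of the other groups. Gadd45b rose 1.54-fold in double mutants against wild type (0.63 ± 0.14 SE, adjusted p = 0.00507). In Vhl mutants the difference from wild type was 0.42 ± 0.14 SE (adjusted p = 0.108), and in Pbrm1 mutants it was -0.23 ± 0.14 SE (adjusted p = 0.46). Double against Vhl mutants differed by 0.21 ± 0.14 SE, which was not called either (adjusted p = 0.477). Gadd45b also separated both groups with floxed Vhl from Pbrm1 mutants. It rose 1.82-fold in double against Pbrm1 mutants (0.86 ± 0.14 SE, adjusted p = 0.000291) and 1.58-fold in Vhl against Pbrm1 mutants (0.66 ± 0.14 SE, adjusted p = 0.00481), and both calls held under all 32 alternatives.

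Atf3, a stress-induced repressor of the CREB family, and Ier2, a nuclear protein of the growth response, passed narrowly in double mutants. Atf3 measured 6.31, 5.97, 5.49 and 5.90 in double mutants, 5.56, 5.37, 5.28 and 5.46 in Vhl mutants, 5.67, 5.29, 5.36 and 5.89 in Pbrm1 mutants, and 5.63, 5.21, 5.38 and 5.38 in wild-type kidneys. Ier2 measured 4.62, 4.81, 4.35 and 5.10 in double mutants, 4.32, 4.23, 4.66 and 4.78 in Vhl mutants, 4.26, 4.59, 4.28 and 4.47 in Pbrm1 mutants, and 4.07, 4.25, 4.45 and 4.16 in wild-type kidneys. For both genes double mutant replicate 3 was the lowest of its group and lay below the highest wild-type array, so the groups overlapped. Atf3 rose 1.43-fold (log2 fold change 0.52 ± 0.16 SE, limma adjusted p = 0.0434) and Ier2 1.42-fold (0.50 ± 0.16 SE, adjusted p = 0.0432), and each call was lost under 13 of the 32 alternatives, including the omission of double mutant replicate 1, 2 or 4. Neither gene differed by the test between the single mutants and wild type, with log2 fold changes from 0.02 to 0.26.

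Fos and Fosb, AP-1 subunits with short-lived transcripts, were dim on these arrays. Fos measured 4.62, 4.51, 4.68 and 4.78 in double mutants, 5.09, 4.27, 4.20 and 4.05 in Vhl mutants, 4.03, 3.77, 4.05 and 4.34 in Pbrm1 mutants, and 3.92, 4.24, 4.16 and 4.31 in wild-type kidneys. The highest value belonged to Vhl mutant replicate 1, well above the rest of its group, and the double mutant arrays all lay above those of Pbrm1 mutants and wild type. The log2 fold change of Fos in double mutants was 0.50 ± 0.18 SE against wild type (limma adjusted p = 0.0912), and it rose 1.52-fold against Pbrm1 mutants (0.60 ± 0.18 SE, adjusted p = 0.0416), a call lost under 14 of the 32 alternatives. Fosb lay between 3.76 and 4.44 on all 16 arrays and had no call in any of the 7 comparisons. Its highest value, 4.44, was that of double mutant replicate 1, with the other arrays of that group at 3.84 to 3.97.

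Jun, Ier3 and Gadd45g shared another pattern: all 3 were lower in both single mutants than in wild type. In double mutants none differed from wild type by the test, although the log2 fold change of Gadd45g was -0.63 there. Jun is the main AP-1 partner of Fos, Ier3 is a survival factor induced by stress and NF-kappa-B, and Gadd45g is the family member tied to growth arrest and p38 signalling. Their promoters are shown because these genes moved together, with the same 250 bases of GRCm38.p6 from RefSeq. Capitals mark GAANNTTC, the inner repeat of a heat shock element, in Jun (chr4:95052223-95052472, minus strand), and ACGTG in Ier3 (chr17:35821463-35821712, plus strand) and in Gadd45g (chr13:51846425-51846674, plus strand), where it again matches both strands.
Jun: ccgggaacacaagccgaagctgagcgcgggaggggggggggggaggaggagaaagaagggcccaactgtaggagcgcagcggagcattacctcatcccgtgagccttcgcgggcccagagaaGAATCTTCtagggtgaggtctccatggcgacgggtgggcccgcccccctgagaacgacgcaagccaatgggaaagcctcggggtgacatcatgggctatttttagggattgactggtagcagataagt
Ier3: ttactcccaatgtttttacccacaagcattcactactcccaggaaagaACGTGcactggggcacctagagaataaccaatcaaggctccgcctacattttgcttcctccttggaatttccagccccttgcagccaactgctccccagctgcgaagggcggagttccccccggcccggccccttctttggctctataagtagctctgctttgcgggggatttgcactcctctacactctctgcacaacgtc
Gadd45g: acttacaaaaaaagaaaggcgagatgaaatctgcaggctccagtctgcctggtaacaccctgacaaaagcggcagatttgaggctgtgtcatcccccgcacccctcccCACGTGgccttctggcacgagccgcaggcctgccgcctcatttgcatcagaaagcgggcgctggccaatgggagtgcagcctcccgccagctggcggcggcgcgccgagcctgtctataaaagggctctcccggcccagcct
GAANNTTC was found in 6.69% of the 32851 promoters and in 1 of the 8 member promoters, that of Jun. The 3 windows shared no searched motif, since ACGTG did not occur in that of Jun.

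Jun measured 8.08, 8.11, 7.71 and 8.03 in double mutants, 7.41, 7.35, 7.24 and 7.11 in Vhl mutants, 7.38, 7.32, 7.63 and 7.36 in Pbrm1 mutants, and 8.48, 8.48, 7.74 and 7.69 in wild-type kidneys. Both single mutants lay below every wild-type array, and the wild-type arrays fell into a high pair (replicates 1 and 2) and a low pair (replicates 3 and 4). Jun fell by 0.82 on the log2 scale in Vhl mutants (± 0.15 SE, to 0.567 of wild type, limma adjusted p = 0.00361). In Pbrm1 mutants it fell by 0.67 (± 0.15 SE, to 0.627 of wild type, adjusted p = 0.0148). Double mutants differed from wild type by -0.11 ± 0.16 SE (adjusted p = 0.75; 95% interval -0.44 to 0.21).

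Ier3 measured 8.45, 8.37, 8.35 and 8.48 in double mutants, 7.81, 7.90, 7.51 and 7.45 in Vhl mutants, 7.30, 7.12, 8.02 and 8.0 in Pbrm1 mutants, and 8.58, 8.48, 8.18 and 8.26 in wild-type kidneys. The single mutant arrays all lay below those of double mutants and wild type, and in Pbrm1 mutants the arrays of the 2 numbers were 0.80 apart in mean. Ier3 fell by 0.71 in Vhl mutants (± 0.16 SE, to 0.612 of wild type, limma adjusted p = 0.0147) and by 0.77 in Pbrm1 mutants (± 0.16 SE, to 0.588 of wild type, adjusted p = 0.00772). The difference of double mutants from wild type was 0.04 ± 0.16 SE (adjusted p = 0.928; 95% interval -0.30 to 0.38).

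Gadd45g measured 8.08, 8.08, 7.45 and 7.52 in double mutants, 7.20, 7.07, 7.16 and 6.85 in Vhl mutants, 7.45, 7.61, 7.46 and 7.59 in Pbrm1 mutants, and 8.87, 9.2, 7.71 and 7.82 in wild-type kidneys. Wild-type replicates 1 and 2 were again the highest, 1.27 above replicates 3 and 4 in mean, and the single mutant arrays lay below all wild-type arrays. Gadd45g fell by 1.33 in Vhl mutants (± 0.24 SE, to 0.399 of wild type, limma adjusted p = 0.0028) and by 0.87 in Pbrm1 mutants (± 0.24 SE, to 0.546 of wild type, adjusted p = 0.0469). In double mutants the log2 fold change was -0.63 ± 0.24 SE (adjusted p = 0.111). The call in Pbrm1 mutants was lost under 18 of the 32 alternatives, more than for any other member.

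For Jun and Gadd45g much of this pattern rested on wild-type replicates 1 and 2, which share a description number. Without them Jun differed from wild type by -0.44 in Vhl mutants (limma adjusted p = 0.0758) and by -0.29 in Pbrm1 mutants (adjusted p = 0.258), and neither was called. Ier3 moved less, from -0.71 to -0.55 in Vhl mutants (adjusted p = 0.212) and from -0.77 to -0.61 in Pbrm1 mutants (adjusted p = 0.131). Neither difference of Ier3 was called in this fit, which has fewer wild-type arrays. Gadd45g remained called in Vhl mutants, at -0.69 (adjusted p = 0.0311), and differed by -0.24 in Pbrm1 mutants (adjusted p = 0.559) and by 0.02 in double mutants (adjusted p = 0.965). Egr1 moved little: its log2 fold change was then 1.20 in double mutants (adjusted p = 0.000177), 0.79 in Vhl mutants (adjusted p = 0.0246) and 0.53 in Pbrm1 mutants (adjusted p = 0.139). Junb and Gadd45b in double mutants moved to 0.33 (adjusted p = 0.114) and 0.46 (adjusted p = 0.0779), since their wild-type values were lower in replicates 1 and 2 than in 3 and 4. In that fit 1 member remained called in double mutants, 2 in Vhl mutants and 0 in Pbrm1 mutants. Leaving out replicates 3 and 4 instead had the opposite effect, with Gadd45g at -1.25 in double mutants, -1.96 in Vhl mutants and -1.51 in Pbrm1 mutants (adjusted p = 4.99e-05, 3.13e-06 and 2.73e-05).

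**Figure D2:**
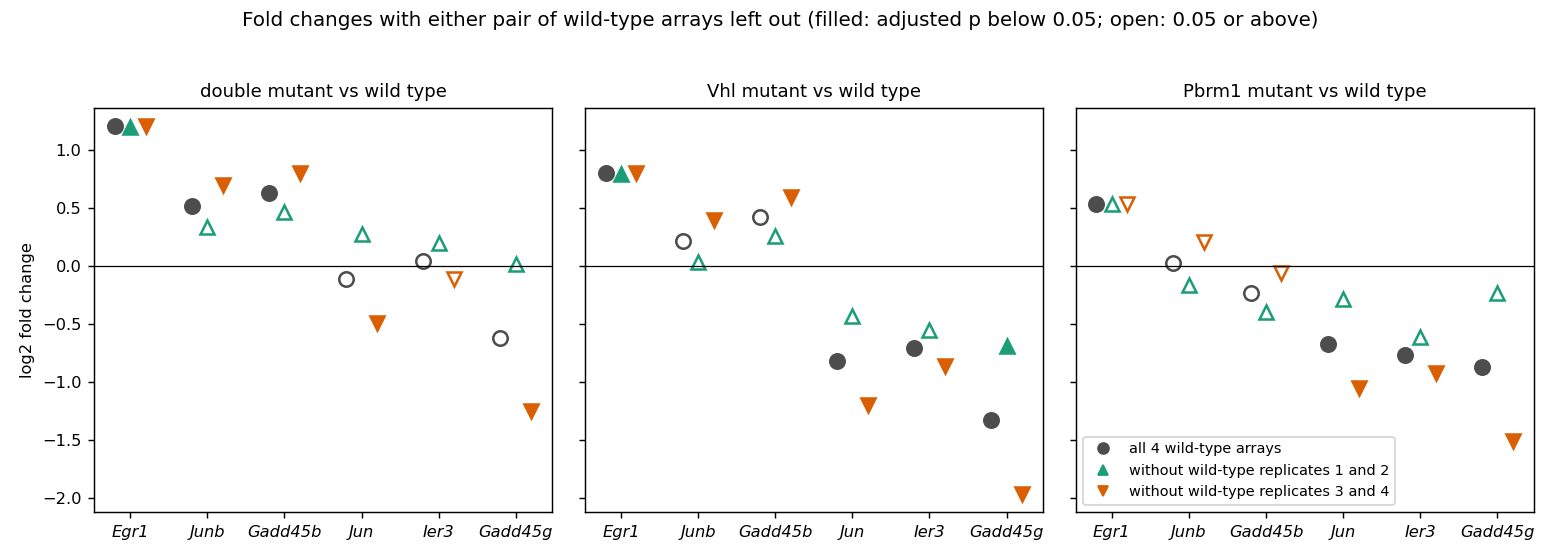
Log2 fold change against wild type (y axis) of 6 members (x axis) in double, Vhl and Pbrm1 mutants, with all 4 wild-type arrays (circles), without replicates 1 and 2 (upward triangles) and without replicates 3 and 4 (downward triangles), filled where the limma adjusted p was below 0.05. Egr1 keeps its value in each panel (1.20 in double mutants with or without replicates 1 and 2), while Gadd45g in double mutants lies at -0.63, 0.02 and -1.25.

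The same wild-type arrays were high in several inducible heat shock genes. Hspa1a, the stress-induced Hsp70 chaperone and a near-identical copy of Hspa1b, measured 7.65, 7.53, 6.63 and 6.80 in double mutants, 6.13, 6.13, 6.42 and 6.59 in Vhl mutants, 7.43, 7.38, 6.27 and 5.92 in Pbrm1 mutants, and 9.80, 10.02, 7.51 and 7.38 in wild-type kidneys. Wild-type replicates 1 and 2 lay 2.46 above replicates 3 and 4 in mean, and Pbrm1 mutant replicates 1 and 2 lay 1.32 above replicates 3 and 4. Double mutant replicates 1 and 2 (7.65 and 7.53) also lay above replicates 3 and 4 (6.63 and 6.80), although replicate 3 shares their number. In Vhl mutants replicates 3 and 4 were the higher. Of 14 inducible heat shock genes measured, 7 fell in double mutants, 7 in Vhl mutants and 8 in Pbrm1 mutants against wild type, and 0 rose (1.79% to 5.56% of all genes were called lower). Without wild-type replicates 1 and 2 the counts were 3, 1 and 0. Their summed linear level ranged from 5171 to 6236 in double mutants, 5584 to 5915 in Vhl mutants, 5636 to 6439 in Pbrm1 mutants and 6870 to 9364 in wild-type kidneys. Hspa1a fell in all 3, with log2 fold changes of -1.54 in double mutants (limma adjusted p = 0.042), -2.36 in Vhl mutants (adjusted p = 0.00678) and -1.92 in Pbrm1 mutants (adjusted p = 0.0253). Without those arrays they were -0.29, -1.13 and -0.69 (adjusted p = 0.691, 0.143 and 0.408).

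Within-group deviations were also set beside those of 5 inducible heat shock genes (Hspa1a, Hspa1b, Hsph1, Dnajb1 and Bag3), as a description over 16 arrays that share groups and numbers. The 5 were picked by name from 14 measured, without a set rule. Not all 14 had the high wild-type pair: Hspe1 measured 7.35, 7.26, 7.39 and 7.28 in wild-type kidneys. For Gadd45g the correlations ranged from 0.692 (Hspa1b) to 0.867 (Hsph1) over all arrays, and from 0.272 (Hspa1b) to 0.667 (Hsph1) over the 12 mutant arrays. For Jun they ranged from 0.529 (Hspa1b) to 0.789 (Bag3) over all arrays, and from -0.145 (Hspa1b) to 0.362 (Bag3) over the mutant arrays. Both genes thus followed the heat shock genes less closely once wild-type arrays were left out. For Ier3 they ranged from -0.354 (Hspa1b) to 0.125 (Bag3) over all arrays, and from -0.836 (Hspa1b) to -0.473 (Bag3) over the mutant arrays. For Egr1 the range was -0.304 (Hspa1b) to 0.132 (Bag3) over all arrays, and -0.435 (Hspa1b) to 0.185 (Bag3) over the mutant arrays. Other members also had large values. Junb ranged from -0.63 (Hsph1) to -0.264 (Bag3) over all arrays, and from -0.312 (Hspa1b) to 0.273 (Bag3) over the mutant arrays. Over the mutant arrays Gadd45b reached 0.704 and Fosb 0.634 (both Bag3), against -0.157 and -0.025 over all arrays. The times of day, of death and of freezing are not in the labels used here, and the part of tissue handling in these values was not tested.

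**Figure D3:**
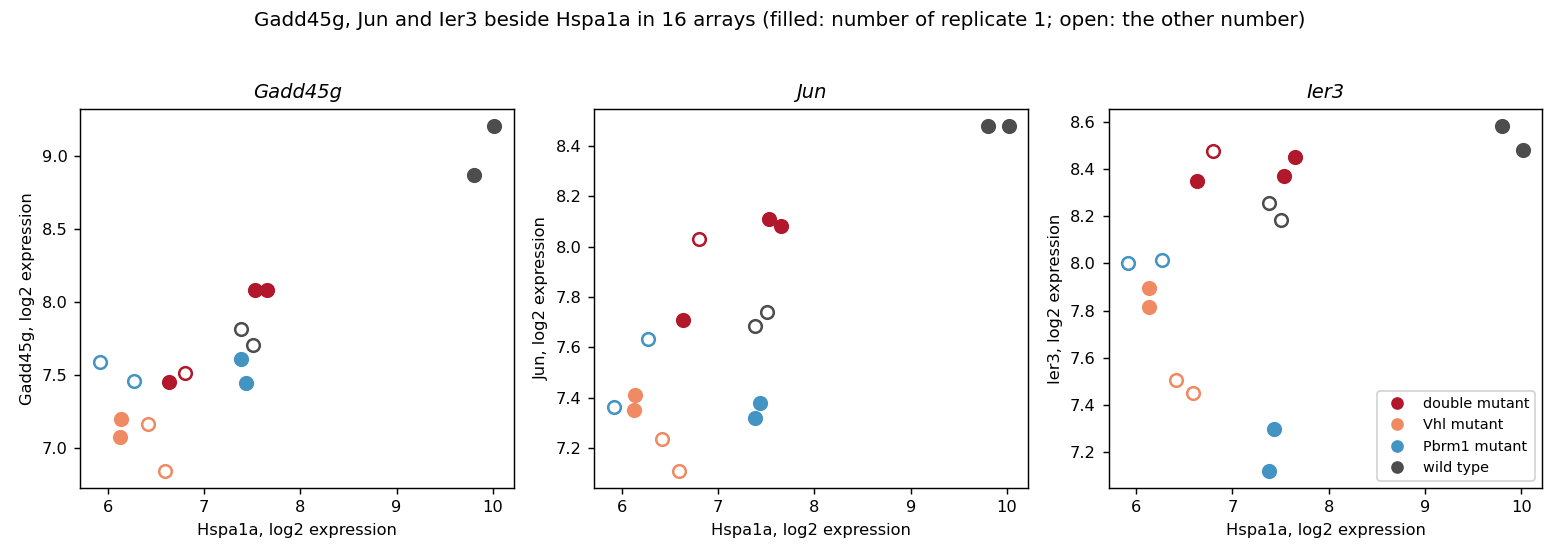
Log2 expression of Gadd45g, Jun and Ier3 (y axes) against that of Hspa1a (x axis) in 16 arrays coloured by group, filled where the array has the description number of replicate 1 and open where it has the other. Wild-type replicates 1 and 2 stand alone at Hspa1a values of 9.80 and 10.02, and Pbrm1 mutants of high Hspa1a (7.43 and 7.38) have the lowest Ier3 (7.30 and 7.12).

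The interaction asked whether the double mutant effect equalled the sum of the single effects. It was called for Jun, Ier3 and Gadd45g, all positive, where 2.63% of all genes were called, 1.78% positive and 0.852% negative. The interaction term was 1.38 ± 0.22 SE for Jun (limma adjusted p = 0.00143), 1.51 ± 0.23 SE for Ier3 (adjusted p = 0.000825) and 1.57 ± 0.34 SE for Gadd45g (adjusted p = 0.0164). For each of the 3, the double mutant lay above the level that the sum of the single differences gives. Without wild-type replicates 1 and 2 the terms were 0.997 (adjusted p = 0.00201), 1.36 (adjusted p = 0.0109) and 0.94 (adjusted p = 0.0267), so these calls did not rest on those arrays alone. With arrays averaged per number, which leaves 8 values and 4 residual degrees of freedom, the terms were 1.39, 1.53 and 1.495 and none was called (adjusted p = 0.0571, 0.0612 and 0.165). The call for Gadd45g was also lost without double mutant replicates 1, 2 and 3 (1.32, adjusted p = 0.216), where 1 double mutant array is left and is assumed to vary like the other groups, and without Pbrm1 mutant replicates 3 and 4 (1.57, adjusted p = 0.0647). The term includes the wild-type group, so that a strain difference shared by the mutants enters it and cannot be told apart from the deletions. The interaction terms of the 7 other members ranged from -0.12 (Egr1) to 0.44 (Gadd45b), and none was called. Of 14 inducible heat shock genes, 3 also had a called positive interaction and 0 a negative one. Hspa1a was among them, at 2.75 ± 0.68 SE (limma adjusted p = 0.0338). The part of tissue handling in the interaction terms was not tested.

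**Figure D4:**
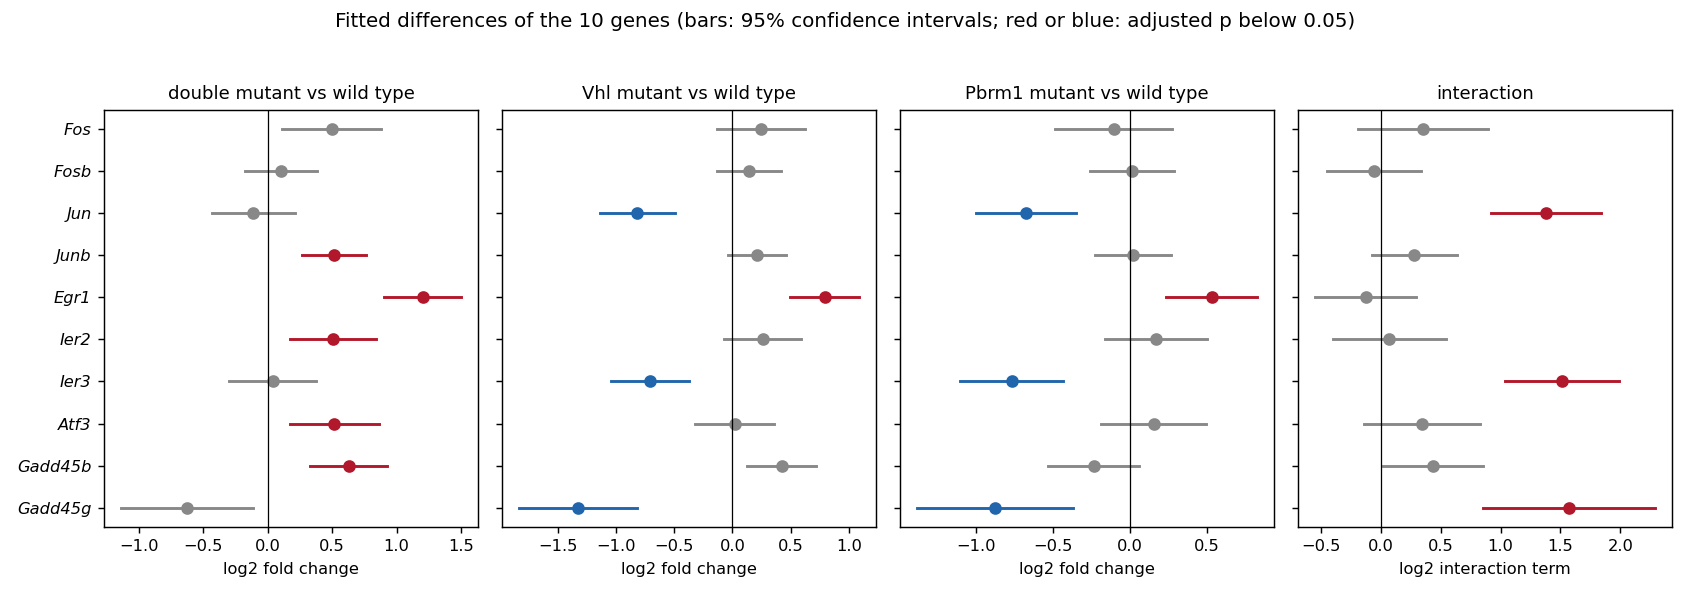
Fitted log2 differences of the 10 genes (x axes) in double, Vhl and Pbrm1 mutants against wild type and for the interaction of both deletions, with 95% confidence intervals as bars and colour where the limma adjusted p was below 0.05 (red higher, blue lower). The 3 genes that fell in both single mutants (Jun -0.82 and -0.67, Ier3 -0.71 and -0.77, Gadd45g -1.33 and -0.87) are those with a called interaction (1.38, 1.51 and 1.57).

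Set against the single mutants, no member was lower in double mutants by the test. Against Vhl mutants 2 members rose (6.35% of all genes called, 3.8% higher and 2.55% lower): Jun 1.63-fold (log2 fold change 0.71 ± 0.16 SE, limma adjusted p = 0.00701) and Ier3 1.68-fold (0.75 ± 0.16 SE, adjusted p = 0.00642). Against Pbrm1 mutants 6 members rose (10.2% of all genes called, 6.82% higher and 3.37% lower), namely Gadd45b, Ier3, Egr1, Fos, Jun and Junb. Ier3 rose 1.75-fold (0.81 ± 0.16 SE, adjusted p = 0.00195), Egr1 1.59-fold (0.67 ± 0.14 SE, adjusted p = 0.00329), Jun 1.48-fold (0.56 ± 0.16 SE, adjusted p = 0.0228) and Junb 1.41-fold (0.49 ± 0.12 SE, adjusted p = 0.00897). All double mutant arrays lay above all Pbrm1 mutant arrays for these 6 genes, where 9.71% of all genes lay higher in this way, 7.75% lower and 17.5% either way. All double mutant arrays lay above all Vhl mutant arrays for 4 members (Jun, Junb, Ier3 and Gadd45g), where 7.55% of all genes lay higher in this way, 6.25% lower and 13.8% either way. Between Vhl and Pbrm1 mutants the member called was Gadd45b (7.47% of all genes called, 4.71% higher and 2.75% lower). Fosb and Gadd45b were higher and Gadd45g lower in every Vhl mutant array than in every Pbrm1 mutant array, where 7.48% of all genes lay higher in this way, 6.33% lower and 13.8% either way. Without Vhl mutant replicates 3 and 4 neither rise over Vhl mutants was called, and without Pbrm1 mutant replicates 1 and 2 the call that remained over Pbrm1 mutants was that of Gadd45b.

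The arrays of each group were also compared by number. In wild-type kidneys 5 of the 10 members (Jun, Junb, Ier3, Gadd45b and Gadd45g) had both arrays of one number above both of the other, where 42.26% of all genes did. In Vhl mutants there were 4 (Fos, Jun, Ier2 and Ier3; 40.85% of all genes) and in Pbrm1 mutants 3 (Fos, Egr1 and Ier3; 39.59%). The members' shares were thus near those of all genes. Jun and Gadd45g deviated together from their group means (r = 0.873 over 16 arrays). Their number means lay furthest apart in wild-type kidneys, by 0.764 and 1.272, against at most 0.208 and 0.353 in the mutant groups. Their correlation without wild-type arrays was not computed. Fosb followed Gadd45b (0.661), the pair with its peak in double mutant replicate 1. Over the 45 pairs of members the median was 0.134, with a range of -0.43 (Junb and Gadd45g) to 0.873, so most pairs did not vary together. The genes whose deviations most resembled the mean of the members were Acvr1b, an activin receptor (r = 0.882), Pygm, the muscle glycogen phosphorylase (0.862), Aplnr, the apelin receptor (0.828), Vcl, the adhesion protein vinculin (0.827), Fbxw9 (0.816) and Il17re (0.801), each over 16 arrays that share groups and numbers. They are the highest among all other genes at or above the median gene, and so large a search yields high values by selection. No reference level for it was computed.

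Other immediate early genes were read from the same arrays. Of 54 measured from a list of 56, 13 rose and 1 fell in double mutants against wild type, 5 rose and 0 fell in Vhl mutants, and 1 rose and 1 fell in Pbrm1 mutants. Over all genes 12.2%, 3.84% and 4.04% were called in these comparisons, so that 2 of 54 in Pbrm1 mutants is near the share of all genes. The list's median log2 fold change was 0.15, -0.01 and -0.10 in these comparisons, against -0.02, -0.01 and -0.01 over all genes. Without wild-type replicates 1 and 2 the double mutant counts were again 13 and 1. Myc, the growth-promoting transcription factor, measured 7.54, 7.36, 7.49 and 7.45 in double mutants, 6.996, 6.78, 6.94 and 6.66 in Vhl mutants, 6.31, 6.14, 6.21 and 6.07 in Pbrm1 mutants, and 6.03, 6.38, 6.05 and 5.87 in wild-type kidneys. The double mutant arrays lay above all others and the Vhl mutant arrays above those of Pbrm1 mutants and wild type. Myc rose 2.59-fold in double mutants (log2 fold change 1.37 ± 0.11 SE, limma adjusted p = 2e-08) and 1.69-fold in Vhl mutants (0.76 ± 0.10 SE, adjusted p = 0.000178).

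Nr4a1, an orphan nuclear receptor of the immediate early response, measured 7.14, 6.96, 6.69 and 7.04 in double mutants, 6.27, 6.22, 6.05 and 6.04 in Vhl mutants, 5.96, 5.42, 6.26 and 6.41 in Pbrm1 mutants, and 5.80, 5.95, 5.67 and 5.70 in wild-type kidneys. Every double mutant array lay above every other array, and Nr4a1 rose 2.27-fold against wild type (log2 fold change 1.18 ± 0.16 SE, limma adjusted p = 2.84e-05). Fosl2, an AP-1 subunit with a longer-lived transcript than Fos, measured 7.81, 7.47, 7.42 and 7.43 in double mutants, 7.26, 6.91, 6.80 and 6.80 in Vhl mutants, 6.64, 6.52, 6.65 and 6.59 in Pbrm1 mutants, and 6.63, 6.71, 6.37 and 6.67 in wild-type kidneys. It rose 1.91-fold in double mutants (0.93 ± 0.11 SE, adjusted p = 8.39e-06), and in Vhl mutants its log2 fold change was 0.35 ± 0.11 SE (adjusted p = 0.0953). Jund, the AP-1 subunit least tied to induction, had no call, at -0.12 ± 0.09 SE in double mutants (adjusted p = 0.441). Nfkbiz, an inducible regulator of NF-kappa-B, rose 1.79-fold in double mutants (0.84 ± 0.09 SE, adjusted p = 2.02e-06) and 1.32-fold in Vhl mutants (0.40 ± 0.09 SE, adjusted p = 0.0141). In Pbrm1 mutants the called genes of the list were Dusp6, an ERK phosphatase, which fell by 0.68 (± 0.07 SE, adjusted p = 4.18e-06), and Errfi1, an inhibitor of the EGF receptor, which rose 1.31-fold (0.39 ± 0.06 SE, adjusted p = 0.000512). The interaction was positive and called for 11 of the 54, where 1.78% of all genes were called positive. Ccn1 (a matricellular protein, 1.36 ± 0.29 SE) and Klf6 (a zinc finger factor, 0.78 ± 0.17 SE) were among them. Without wild-type replicates 1 and 2 it was called for 2 of the 54, where 175 of all 22180 genes were called positive.

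**Figure D5:**
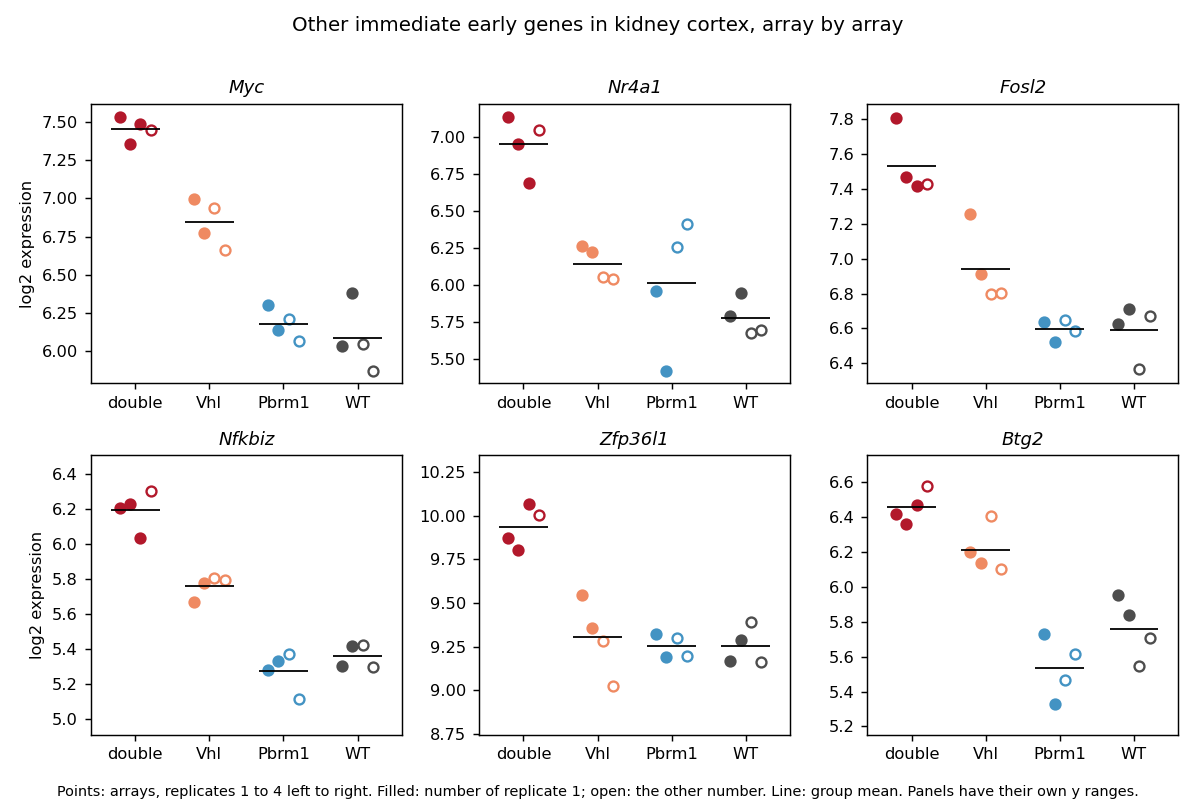
Log2 expression of 6 other immediate early genes (y axis, own range per panel), picked after their values were seen, in the 4 groups (x axis), with points, fill and lines as in the plot of the 10 genes by array. The double mutant arrays of Myc (7.36 to 7.54) and Fosl2 (7.42 to 7.81) lie above all other arrays, and Pbrm1 mutants overlap with wild type in each panel.

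Feedback genes of NF-kappa-B, which several members share as an inducer, were called higher in each mutant group: 9 of 15 rose in double mutants, 4 in Vhl mutants and 2 in Pbrm1 mutants against wild type, and 0 fell. The share of all genes called higher, 6.64%, 2.04% and 1.59% in these comparisons, also differed between the groups and stands beside the marker counts that follow. Without wild-type replicates 1 and 2 the counts were 8, 1 and 0. Tnfaip3, the ubiquitin editor A20, rose 2.00-fold in double mutants (log2 fold change 0.997 ± 0.12 SE, limma adjusted p = 8.33e-06), 1.58-fold in Vhl mutants (0.66 ± 0.12 SE, adjusted p = 0.00289) and 1.38-fold in Pbrm1 mutants (0.46 ± 0.12 SE, adjusted p = 0.0338). Markers of other cells and states moved with the same groups. Of 16 macrophage markers 11 rose in double mutants, 13 in Vhl mutants and 1 in Pbrm1 mutants, and their summed linear level ranged from 1737 to 2063 in double mutants, 1575 to 2141 in Vhl mutants, 1007 to 1082 in Pbrm1 mutants and 1040 to 1223 in wild-type kidneys. Of 12 endothelial markers 5 rose in double mutants, 6 in Vhl mutants and 0 in Pbrm1 mutants, where 2 fell. Of 11 tubular injury markers 11 rose in double mutants, 6 in Vhl mutants and 0 in Pbrm1 mutants, with summed levels of 2181 to 2982 in double mutants, 1066 to 1435 in Vhl mutants, 807.9 to 921.2 in Pbrm1 mutants and 896.1 to 938.4 in wild-type kidneys. Havcr1, the injury molecule KIM-1, averaged 9.04 ± 0.45 (SD) in double mutants, 6.28 ± 0.58 in the Vhl mutant group, 5.96 ± 1.44 in Pbrm1 mutants and 4.34 ± 0.46 in wild-type kidneys. The rise of Havcr1 in Pbrm1 mutants was not called (limma adjusted p = 0.0594), and Lcn2, a lipocalin released by injured tubules, averaged 8.71 in double mutants, 7.34 in the Vhl mutant group, 5.22 in Pbrm1 mutants and 5.61 in wild-type kidneys. The part of macrophages or injured tubules in the values of the 10 genes was not tested.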

How the data were processed

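Trizol RNA of kidney cortex was biotin-labelled for Affymetrix arrays, per the labels' protocols. The authors deposited log2 values computed by RMA (robust multi-array average); the submitters' processing notes name Affymetrix Expression Console 1.4. Of 41345 probe sets, 23521 have 1 gene symbol in the platform annotation, 1814 have several and 16010 are unlisted, and only the first kind was kept. Where a gene had more than 1 (1082 genes), that of highest mean stood for it, giving 22180 genes without a filter.

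A limma model (3.58.1, R 4.3.3) held the 4 groups, the description number as random block (correlation 0.0838) and an intensity-dependent prior variance (7.73 prior and 12 residual degrees of freedom). Calls in the 7 comparisons required a Benjamini-Hochberg adjusted p below 0.05 across all genes; the interaction is double minus Vhl minus Pbrm1 plus wild type. Because of the block, fold changes can depart a little from plain differences of means. The fitting was tested on simulated data. Named genes were all members, up to 4 called genes of largest change per comparison from the list of other immediate early genes and up to 3 from each other list, family members, and the 6 genes most like the members among genes at or above the median. The members and the 16 lists (249 genes, 226 measured) were chosen with earlier results of these data known. Promoters came from a RefSeq table of GRCm38.p6; those on the chromosome of Egr1 were left out. The alternatives dropped the block, the trend, single arrays or whole numbers; averaged arrays of a number or probe sets of a gene; blocked on replicate number; moved double mutant replicate 3 to the other number; filtered dim genes; and centred or quantile-normalized the arrays. Tables and figures were made in Python 3.11.15 (pandas 2.3.3, numpy 2.4.6, matplotlib 3.10.9).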

Additional observations from a re-analysis of the deposited data

Results flagged for a closer look

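The interaction of both deletions was called by limma for 3 members: Jun (1.38 on the log2 scale), Ier3 (1.51) and Gadd45g (1.57). The term includes wild-type mice, which differ from all mutants in strain, and with arrays averaged per number none of the 3 was called (adjusted p = 0.0571, 0.0612 and 0.165). In each, every single mutant array lay below every wild-type array. Among 40 groups of 4 arrays tested for a value apart from the rest, 1 stood out: Fosb in Vhl mutant replicate 4, at 4.096, with the nearest array at 4.056 and a gap of 0.847 of the group's range (the critical value is 0.829). The other 3 arrays of that group were nearly equal, and chance flags about 1 group in 20.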

How the results depend on the processing

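Over 32 alternatives no called difference of a member changed its sign, and 4 of 25 calls were lost under none: Egr1 in double and Vhl mutants against wild type, and Gadd45b in double and Vhl mutants against Pbrm1 mutants. Leaving out 1 array gave 3 to 6 members called in double mutants against wild type (5 with all arrays), 3 to 5 in Vhl mutants (4) and 1 to 4 in Pbrm1 mutants (4); it gave 2 to 4 in double against Vhl mutants (2), 4 to 6 in double against Pbrm1 mutants (6), 1 in Vhl against Pbrm1 mutants (1) and 3 for the interaction (3). The arrays whose omission moved a count by over 1.5 times were wild-type replicates 1 and 2 and Pbrm1 mutant replicates 3 and 4 for Pbrm1 mutants, wild-type replicate 2 and double mutant replicates 1, 2 and 4 for double mutants, and Vhl mutant replicate 1 for double against Vhl mutants. Arrays averaged per number gave 1 member in Vhl and 0 in Pbrm1 mutants against wild type, 1 in double against Vhl mutants and 0 for the interaction; this leaves 8 values. Without wild-type replicates 1 and 2 there were 1 in double, 2 in Vhl and 0 in Pbrm1 mutants against wild type, and 2 in Vhl against Pbrm1 mutants. Without wild-type replicates 3 and 4 there were 4 in double against Vhl mutants and 2 in Vhl against Pbrm1 mutants. Without double mutant replicates 1 to 3 there were 2 against wild type, 0 against Vhl mutants and 2 against Pbrm1 mutants; this leaves 1 double mutant array, assumed to vary like the other groups. Without Vhl mutant replicates 3 and 4 there were 0 in double against Vhl mutants. Without Pbrm1 mutant replicates 1 and 2 there was 1 in Pbrm1 mutants against wild type and 1 in double against Pbrm1 mutants, and without replicates 3 and 4 there was 1 in Pbrm1 mutants against wild type and 2 in Vhl against Pbrm1 mutants. Median centring gave 3 in double mutants against wild type, and no trend gave 2 in Pbrm1 mutants. The causes of these shifts were not tested beyond the smaller number of arrays.

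The replicate block gave 6 members in double, 4 in Vhl and 3 in Pbrm1 mutants against wild type, 4 in double against Vhl mutants, 5 in double against Pbrm1 mutants, 1 in Vhl against Pbrm1 mutants and 3 for the interaction. Arrays of the same replicate number deviated together over all genes in none of 24 pairs (correlations -0.074 to 0.059, and 5 of 24 best with their own number). Such a correlation cannot show whether a few genes share an order. Hspa1a was higher in replicates 1 and 2 than in 3 and 4 in wild-type kidneys, double mutants and Pbrm1 mutants, and lower in Vhl mutants. Over all genes, arrays averaged per number gave 1729 called genes in double (2706 with separate arrays), 246 in Vhl (851) and 274 in Pbrm1 mutants (895) against wild type, 710 in double against Vhl mutants (1408), 1398 in double against Pbrm1 mutants (2260), 916 in Vhl against Pbrm1 mutants (1656) and 99 for the interaction (583). Without wild-type replicates 1 and 2 there were 369 in Vhl and 512 in Pbrm1 mutants and 290 for the interaction, and without replicates 3 and 4 the interaction had 988. Without double mutant replicates 1 to 3 there were 1212, 481 and 1011 in double mutants against wild type, Vhl and Pbrm1 mutants and 236 for the interaction. Without Pbrm1 mutant replicates 3 and 4 there were 349 against wild type, 1394 in double and 982 in Vhl against Pbrm1 mutants, and 300 for the interaction. The interaction had 884 without the block and 337 with no trend. Vhl mutants had 545 without wild-type replicate 1 and 564 without Vhl mutant replicate 3. Fos, Fosb and Ier2 lay near or below the median of all probe sets (4.55 to 4.615), which limits what their folds can show. Egr1 in wild-type kidneys (4.73 to 4.96) lay above that median but below the median of the genes tested (5.178 to 5.275). Its folds against wild type thus start from a dim level.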

Other observations

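The counts below stand beside shares over all genes of 6.64% higher and 5.56% lower in double mutants, 2.04% higher and 1.79% lower in Vhl mutants, and 1.59% higher and 2.45% lower in Pbrm1 mutants, each against wild type. Of 18 integrated stress response genes, 2 fell in double mutants, 4 in Vhl mutants and 3 in Pbrm1 mutants against wild type, and 0 rose; Hspa5, the endoplasmic reticulum chaperone BiP, fell by 0.55 (± 0.13 SE, limma adjusted p = 0.00574) in double mutants, by 0.78 (± 0.13 SE, adjusted p = 0.000865) in Vhl mutants and by 0.46 (± 0.13 SE, adjusted p = 0.0425) in Pbrm1 mutants. Of 14 p53 targets, 2 rose and 1 fell in double mutants, 4 rose and 0 fell in Vhl mutants, and 0 were called in Pbrm1 mutants. Cdkn1a, the cell cycle inhibitor p21, rose 3.05-fold in double mutants (1.61 ± 0.12 SE on the log2 scale, adjusted p = 1.22e-08) and 1.76-fold in Vhl mutants (0.82 ± 0.12 SE, adjusted p = 0.000325). Of 22 genes between growth factor receptors and serum response factor, 6 rose and 3 fell in double mutants, 3 rose and 1 fell in Vhl mutants, and 1 rose and 3 fell in Pbrm1 mutants. Elk3, a partner of serum response factor, rose 1.33-fold in double mutants (0.41 ± 0.09 SE, adjusted p = 0.00397) and 1.33-fold in Vhl mutants (0.41 ± 0.09 SE, adjusted p = 0.0129). Markers of tubule segments also moved: 6 of 10 collecting duct markers fell in double mutants, 4 in Vhl mutants and 1 in Pbrm1 mutants, and 6, 2 and 2 of 10 markers of the thick ascending limb and distal tubule fell in the same comparisons, with 2 higher in double mutants. Of 12 proximal tubule markers, 1 rose and 4 fell in double mutants, 0 rose and 1 fell in Vhl mutants, and 2 rose and 0 fell in Pbrm1 mutants. None of 5 podocyte, 7 adipose or 7 adrenal cortex markers was called against wild type by limma. The 1 measured gene of the red blood cell list, the mitochondrial iron importer Slc25a37, fell by 0.75 in double mutants and by 0.64 in Pbrm1 mutants and was not called in Vhl mutants (-0.12).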
